A study of Homo sapiens with 2 samples.

Results

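The clustered protocadherins are cell-surface cadherins encoded side by side on chromosome 5 in 3 groups, named alpha, beta and gamma. They were described here in TFK1, an established human cholangiocarcinoma (bile duct cancer) cell line, with and without knockdown of MBD2. All genes whose symbol follows the naming scheme of the 3 clusters were taken. These were 55 of the 56638 genes kept from the table, with 16 in the alpha cluster, 18 in the beta cluster and 21 in the gamma cluster. One library, called sh-MBD2, came from TFK1 cells in which a lentiviral short hairpin RNA lowered MBD2. The other, called sh-NC, came from TFK1 cells carrying a control hairpin. Per the study's methods, transduced cells were selected with puromycin or G-418, without saying which was used here. Which of the study's MBD2 hairpins was used is not given in the labels. Each condition had 1 library, so no spread between cultures could be estimated and no difference was tested. The libraries held 14728814 counted reads in sh-MBD2 and 14467406 in sh-NC.

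Each alpha or gamma gene has a large exon of its own, with its own promoter, that encodes the extracellular cadherin repeats and the membrane span. This exon is spliced to 3 exons that the members of the cluster share and that encode a common cytoplasmic end. Beta genes consist of their own exon and have no shared end. In neurons each cell uses a small choice of these promoters, and the proteins on its surface bind like with like, which lets a cell tell its own branches from those of others. The last genes of the alpha and gamma clusters, called C-type, are used more uniformly. The factor CTCF and the cohesin ring bring a distal enhancer to the chosen promoters, and DNA methylation marks promoters that are not used. MBD2 is a reader of methylated CpG sites, and so the comparison asks which members differ when this reader is lowered.

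In the RefSeq promoter sequences (GRCh38.p14, 250 bases before to 50 bases after each start), 46 of the 55 members had an entry. Most of these promoters carry a short conserved element whose core is CGCT. The 24 bases around that core are shown, with the core in capitals, for 9 members on which the results below turn.
PCDHA4, chr5:140806983-140807006, plus strand: gccacatgatgtCGCTctttacca
PCDHA12, chr5:140875248-140875271, plus strand: gtcacatgatgtCGCTctacactc
PCDHB2, chr5:141094548-141094571, plus strand: gacgcggggtggCGCTgcagcctt
PCDHB5, chr5:141135183-141135206, plus strand: gacgcctggtggCGCTgcaggcta
PCDHB13, chr5:141213869-141213892, plus strand: gacgcgtggtggCGCTgcaggata
PCDHB14, chr5:141223267-141223290, plus strand: gacacatggtggCGCTacaggata
PCDHGA6, chr5:141373839-141373862, plus strand: gactctaagcgtCGCTgttgacca
PCDHGA7, chr5:141382653-141382676, plus strand: gactcacagcgcCGCTgttcacca
PCDHGB4, chr5:141387621-141387644, plus strand: gactctgggcgcCGCTgttggcca

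The letters around the core differed between the clusters. TGTCGCT was found in 10 of 13 alpha promoters against 1.75% of the 34943 promoters in the RefSeq table. GGTGGCGCT was found in 13 of 14 beta promoters against 0.501% of all promoters. CGCTGTT was found in 12 of 19 gamma promoters against 2.25% of all. The 4 letters CGCT alone were found in 45 of 46 member promoters, and also in 69.9% of all promoters. Both strands were searched, the longer motifs contain or overlap the core, and all 4 motifs were chosen after the promoters had been viewed. In the 35 member promoters with the cluster's own longer motif, the core lay a median of 55 bases before the start.

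The joined exons show why part of the reads of a cluster cannot be assigned to 1 member. The last 12 bases of the member's own exon are in lower case and the first 12 bases of the shared exon are in capitals, from GENCODE 29 (GRCh38, plus strand).
PCDHA4, chr5:140809561-140809572 joined to chr5:140978949-140978960: tcctttgcaaagCCACGACAGCCC
PCDHAC2, chr5:140969320-140969331 joined to chr5:140978949-140978960: tctcaaaatgagCCACGACAGCCC
PCDHGA6, chr5:141376496-141376507 joined to chr5:141494807-141494818: aggcaacttcagCAAGCCCCGCCC
PCDHGC3, chr5:141478535-141478546 joined to chr5:141494807-141494818: cctcccggacagCAAGCCCCGCCC

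All 15 alpha transcripts read in this way passed into 1 shared start, and all 21 gamma transcripts into another, while each own end was different. The remaining alpha member, PCDHA14, named after its values were seen, had 0 counts and no such transcript. In GENCODE 29 it ends before the shared exons, at 140863521. The 3 shared exons took 2866 to 2869 bases of an alpha transcript, beside an own part of 2352 to 3427 bases. In the gamma cluster they took 2181 to 2183 bases, beside an own part of 2397 to 2597 bases. A read that lies wholly in the shared exons fits every member that is spliced to them. How the counting treated such reads is not given in the sources used here. Members with 0 or 1 counts stood in both clusters beside members with 75 or more, so shared reads were not added to every member. The deposited TPM (counts scaled by transcript length and library size) nevertheless divide by the whole transcript. The length implied by count and TPM lay within 10 bases of a full GENCODE 29 transcript for 13 of 15 alpha members. In the gamma cluster this held for 12 of 16 members. Transcripts without the shared end were not considered, and of the others the nearest to the implied length was taken. This match is thus partly built in. The implied length lay near that of the own exon for 0 members. TPM of an alpha or gamma member are therefore low beside those of a beta member with the same density of reads in its own exon. For this reason levels are compared between members below per kilobase of own exon, which assumes that the counted reads lie there.

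MBD2 itself, the target of the hairpin, had 365 counts in sh-MBD2 and 1013 in sh-NC. On normalized counts this is a log2FC (log2 of sh-MBD2 over sh-NC) of -1.48, with a 95% interval of -1.66 to -1.31. Here and below, intervals are exact (Clopper-Pearson) intervals of how the reads split between the 2 libraries. They cover counting error only and say nothing about the spread between cultures. Of the biliary markers, 8 of 8 had at least 10 counts, among them the keratin gene KRT7 with 1160 TPM in sh-MBD2 and 1327 TPM in sh-NC. EPCAM, an epithelial adhesion molecule, and the keratin gene KRT19 were at much lower levels, with 11.3 and 16.9 TPM for EPCAM and 15.0 and 9.04 for KRT19. Of the 8, 2 were higher in sh-MBD2, KRT19 and CDH1, and 6 were lower. All of these had an interval without 0, beside 19.7% of all genes above 0 and 18.4% below, not matched for counts. EPCAM, KRT19 and CDH1 were named after their values were seen. Since clustered protocadherins are best known from neurons, neuron markers were read as well. Of these, 6 of 10 had at least 10 counts, led by the tubulin gene TUBB3 with 1790 and 1454 counts. The other 5 were SNAP25 (538 and 511 counts), RBFOX3 (334 and 444), MAP2 (400 and 477), SYT1 (331 and 400) and NEFL (174 and 243). Of the 6, 2 were higher and 4 lower in sh-MBD2. STMN2 and GAP43 were at 0 in both libraries. Of the neuron markers, those beyond the 3 with the most counts were picked with their values in view. The summed list had 3578 counts in sh-MBD2 and 3534 in sh-NC. Fibroblast markers summed to 7 and 14 counts, leukocyte markers to 1 and 3, and hepatocyte markers to 10 and 6. The part of other cell types in the protocadherin counts was not tested.

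The clustered protocadherins were expressed at a low level in both libraries, and their total differed little. Over all 55 members 1156 counts were found in sh-MBD2 and 1175 in sh-NC, and the log2FC was -0.03 (-0.15 to 0.086). In bulk RNA, fewer cells that use a gene and less RNA per cell cannot be told apart. Of the 55 members, 29 reached 10 counts summed over both libraries: 9 alpha, 9 beta and 11 gamma members. These had between 11 and 347 counts. The other 26 had at most 8 counts, and 9 of them were at 0 in both libraries.

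**Figure D1:**
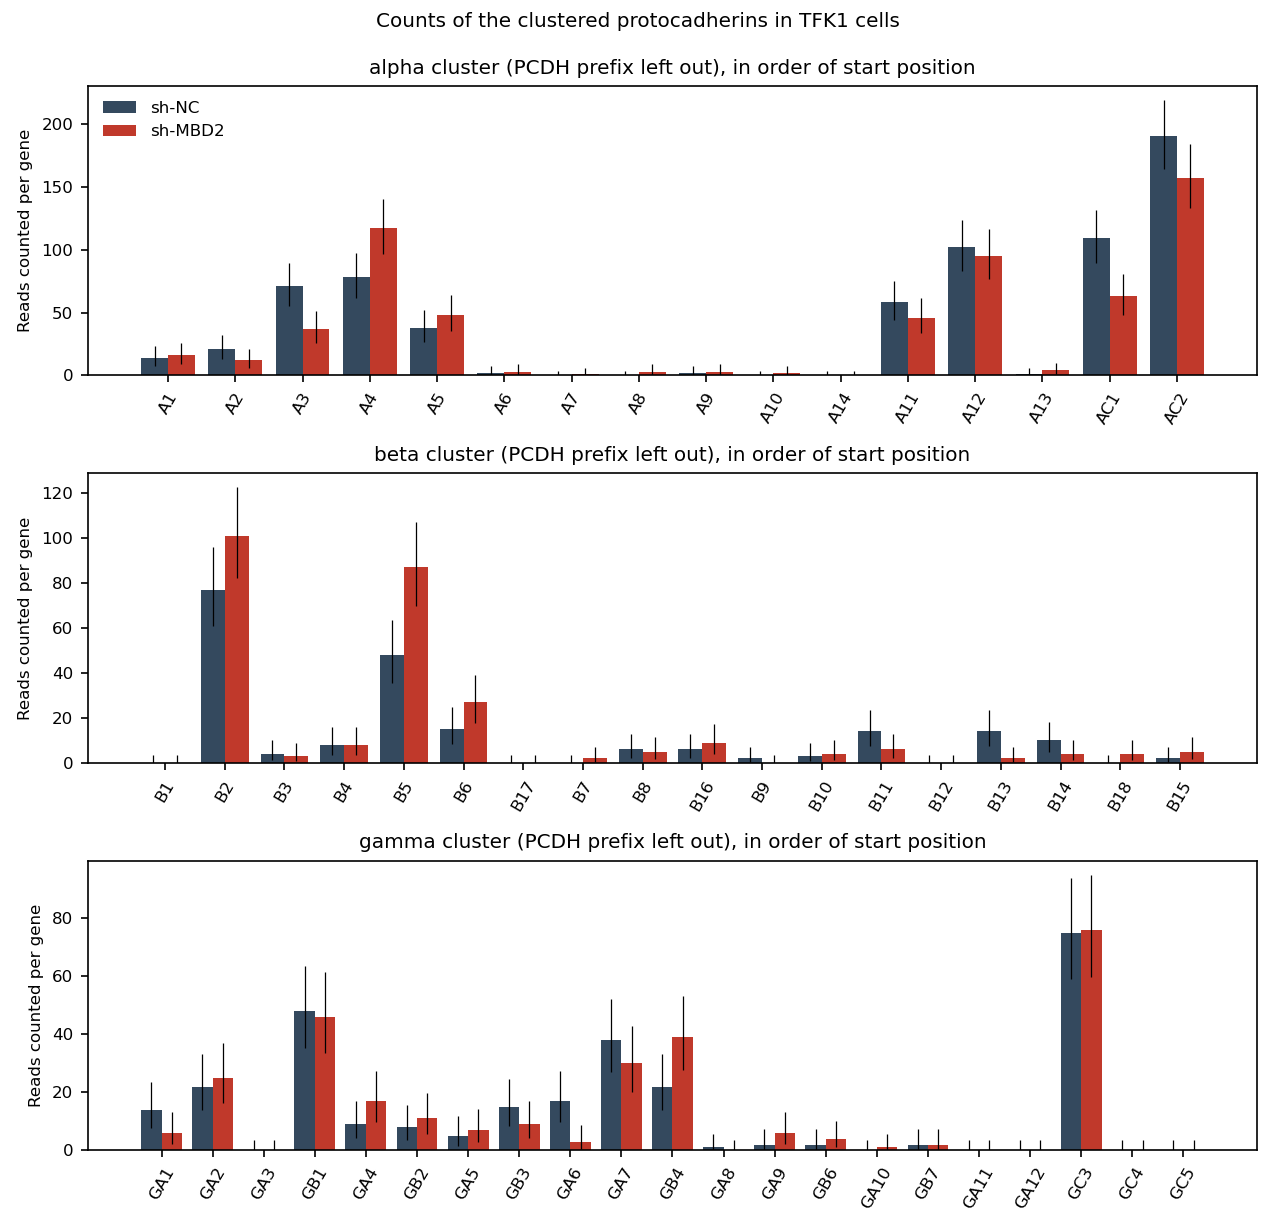
Reads counted for each of the 55 members, in order of start position within the alpha, beta and gamma clusters, with dark bars for sh-NC and red bars for sh-MBD2 (1 library each; black lines are 95% exact Poisson intervals, counting error only). Counts stand in a few blocks along each cluster, and PCDHAC2 has the highest bars, 157 in sh-MBD2 and 190 in sh-NC.

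Which members carried the reads was similar in both libraries. In the alpha cluster, PCDHA1 to PCDHA5, PCDHA11, PCDHA12 and the C-type genes PCDHAC1 and PCDHAC2 reached 10 counts, while those lying between PCDHA5 and PCDHA11, and the 1 between PCDHA12 and PCDHAC1, did not. In the beta cluster PCDHB2 and PCDHB5 stood far above the others. In the gamma cluster reads lay on the members from PCDHGA1 to PCDHGB4, except PCDHGA3 at 0, and on the C-type gene PCDHGC3. The members between PCDHGB4 and PCDHGC3 had at most 8 counts each. The other C-type genes of this cluster, PCDHGC4 and PCDHGC5, named after their values were seen, were at 0 in both libraries, and a count of 0 allows up to 3 reads. Over the 29 members that reached 10 counts, the rank correlation (Spearman) of counts between the libraries was 0.848. It was 0.85 over 9 alpha, 0.555 over 9 beta and 0.747 over 11 gamma members. These values are descriptions, and the points share gene lengths and a cell line.

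Per kilobase of own exon, PCDHAC2 had the highest level in both libraries, 3.45 normalized CPM (counts scaled to a common library size) per kb in sh-MBD2 and 4.21 in sh-NC. In sh-MBD2 it was followed by PCDHA4 at 3.35, PCDHA12 at 2.74 and PCDHB2 at 2.52 CPM per kb. In sh-NC it was followed by PCDHAC1 at 3.08, PCDHA12 at 2.96 and PCDHA4 at 2.25 CPM per kb. PCDHGC3, the highest gamma member, had 2.05 CPM per kb in sh-MBD2 and 2.04 in sh-NC. Neighbours in the order were not separated beyond counting error: in each library the intervals overlapped for 28 of 28 neighbouring pairs. The median level of the 29 members was 0.609 CPM per kb in sh-MBD2 and 0.604 in sh-NC. The scale matters for the order: by TPM in sh-MBD2, PCDHB2 (6.46) lay above PCDHAC2 (4.60), the reverse of the order per kb of own exon. In sh-NC the order of this pair was the same on both scales, with 5.05 TPM for PCDHB2 and 5.71 for PCDHAC2. PCDHB2 lay above PCDHAC1 (3.69) by TPM there, but below it per kb of own exon, at 1.93 against 3.08 CPM per kb.

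**Figure D2:**
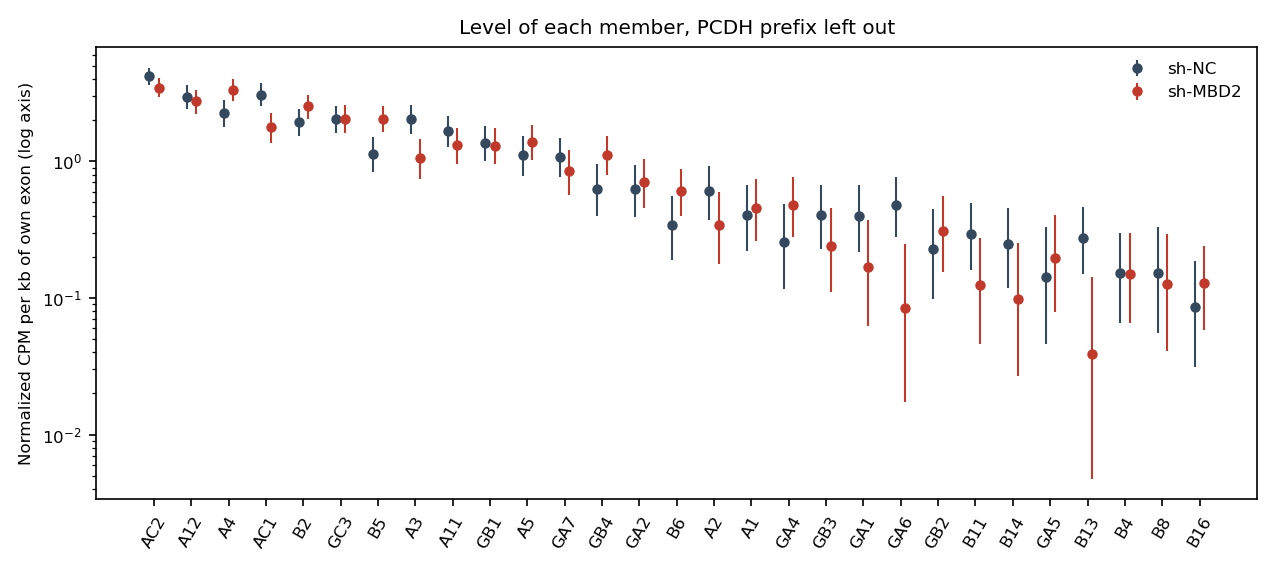
Level of the 29 members with at least 10 counts as normalized CPM per kilobase of own exon (log axis), with 95% exact Poisson intervals, ordered by the mean of both libraries (sh-NC dark, sh-MBD2 red, 1 library each). PCDHAC2 is highest at 3.45 in sh-MBD2 and 4.21 in sh-NC, and PCDHB13 reaches the lowest value, 0.0392 in sh-MBD2.

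The clusters did not move together. The alpha cluster summed to 607 counts in sh-MBD2 and 686 in sh-NC, and its log2FC was -0.19 (-0.35 to -0.026). The beta cluster summed to 267 and 209 counts, a log2FC of 0.34 (0.078 to 0.61). The gamma cluster summed to 282 and 280 counts, a log2FC of 0.0014 (-0.24 to 0.25). So alpha was lower and beta higher in the knockdown library by more than counting error, and gamma was level. Differences past counting error were common between these libraries. Of single genes with at least 10 counts, 19.7% had an interval wholly above 0 and 18.4% wholly below. These shares were not matched to the number of reads in the cluster sums. The beta sum and its members part company: the median over its 9 members with at least 10 counts was -0.0083, with 4 higher and 5 lower. The alpha median over 9 members was -0.28, with 3 higher and 6 lower. The gamma median over 11 members was 0.010, with 6 higher and 5 lower. Over all 17545 genes with at least 10 counts the median log2FC was -0.0082.

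**Figure D3:**
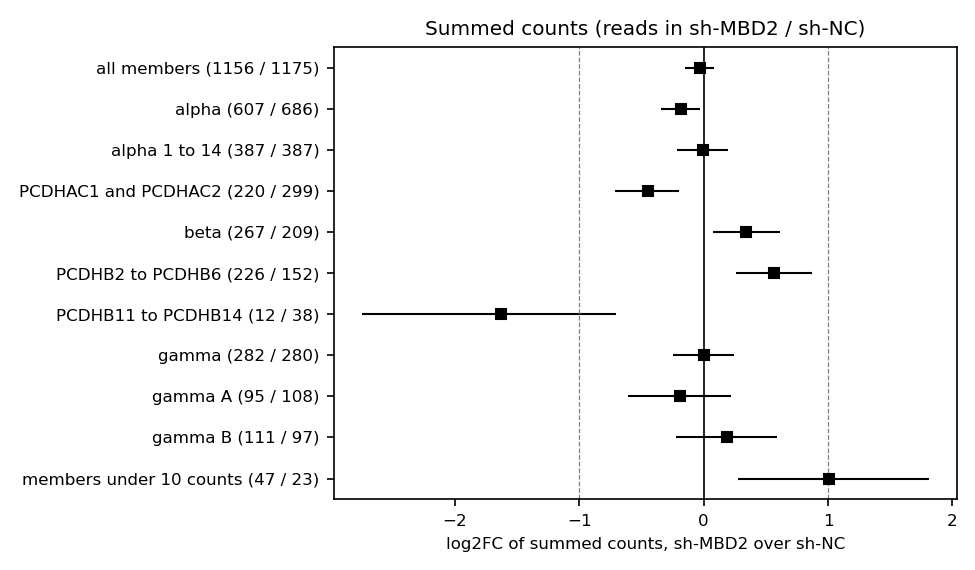
log2FC of summed counts, sh-MBD2 over sh-NC, for the clusters and for groups of members within them, with the reads of both libraries in brackets, 95% exact intervals of the read split (counting error only) and dashed lines at -1 and 1. The alpha sum lies below 0 (-0.19), the beta sum above 0 (0.34) and the gamma sum at 0.0014.

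Read member by member, few stood apart. With a log2FC above 1 there were 0 of the 29 members, beside 5.48% of all 17545 genes and 9.83% of the 7850 genes in the same range of counts. With a log2FC below -1 there were 5 of 29 (17.2%), beside 5.07% of all genes and 9.39% in the same range of counts. These were PCDHB11, PCDHB13, PCDHB14, PCDHGA1 and PCDHGA6, all with at most 20 counts. An interval wholly above 0 was found in 3 of 29 (10.3%), namely PCDHA4, PCDHB5 and PCDHGB4, beside 19.7% of all genes and 12.0% in the same range of counts. An interval wholly below 0 was found in 4 of 29 (13.8%), namely PCDHA3, PCDHAC1, PCDHB13 and PCDHGA6, beside 18.4% and 11.9%. The shares by interval are thus near those of genes with as many reads. The median size of the log2FC, without its sign, was 0.54 over the 29 members and 0.44 over those 7850 genes.

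**Figure D4:**
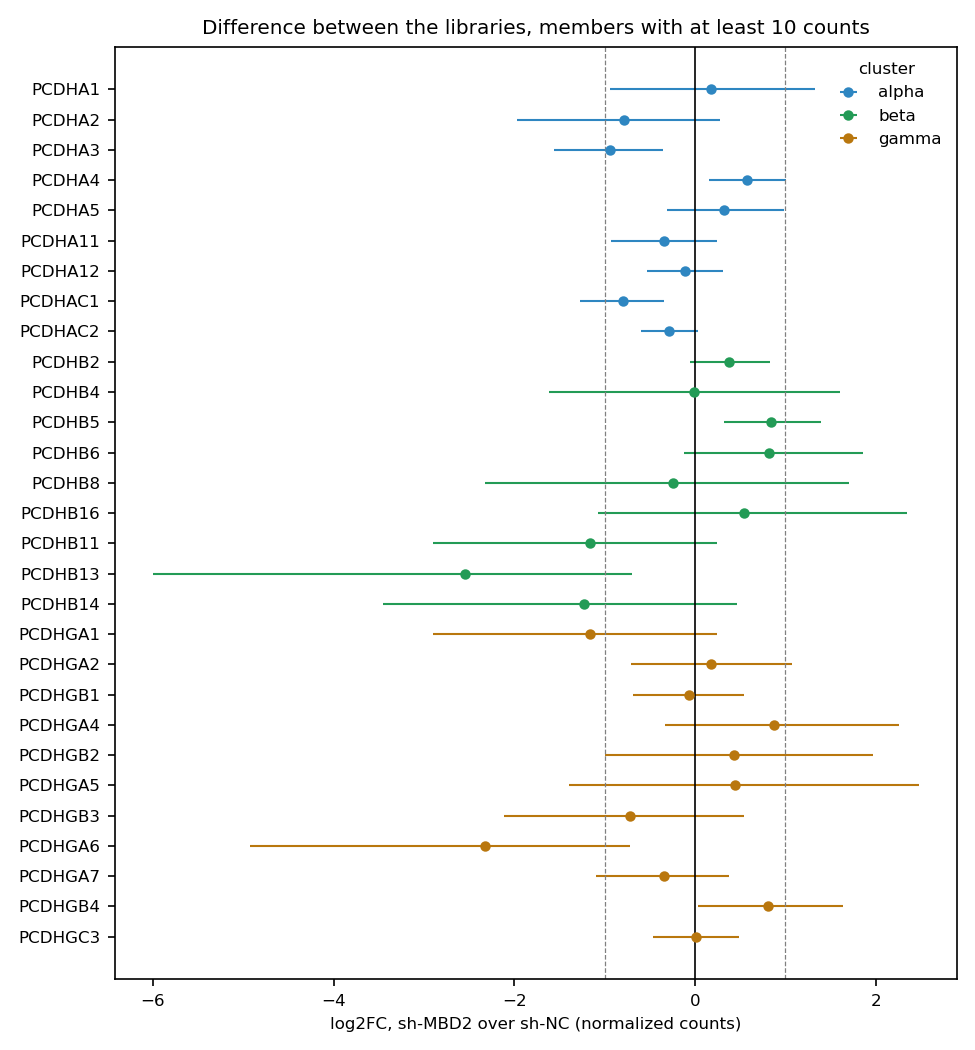
log2FC of each of the 29 members with at least 10 counts, sh-MBD2 over sh-NC, coloured by cluster, with 95% exact intervals of the read split (counting error only) and dashed lines at -1 and 1. In the alpha cluster PCDHA3 and PCDHAC1 lie below 0 and PCDHA4 above, and 5 beta and gamma members lie below -1.

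In the alpha cluster the lower sum lay with the C-type genes. PCDHAC1 had 63 counts in sh-MBD2 and 109 in sh-NC, a log2FC of -0.79 (-1.27 to -0.34). PCDHAC2 had 157 and 190 counts, a log2FC of -0.28 (-0.60 to 0.029). Together these held 220 and 299 counts, a log2FC of -0.45 (-0.71 to -0.20). The members numbered 1 to 14 summed to the same 387 counts in each library, a log2FC of -0.0088 (-0.22 to 0.20). The C-type gene of the gamma cluster, PCDHGC3, did not share the lower count, with 76 and 75.

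Within those equal sums PCDHA4 and PCDHA3 went in opposite directions. In the alpha cluster an interval wholly above 0 was found in 1 of 9 members and wholly below 0 in 2 of 9. In genes with the same range of counts these shares were 12.0% and 11.9%. PCDHA4 had 117 counts in sh-MBD2 and 78 in sh-NC, a log2FC of 0.57 (0.15 to 1.01). Its share of all alpha reads was 19.3% (16.2 to 22.6) in sh-MBD2 and 11.4% (9.09 to 13.99) in sh-NC. PCDHA3, its upstream neighbour, went the other way, with 37 and 71 counts and a log2FC of -0.94 (-1.56 to -0.36). Its share was 6.10% (4.33 to 8.30) in sh-MBD2 and 10.3% (8.17 to 12.9) in sh-NC, so these intervals overlap slightly. For PCDHA12, the third alpha member by counts in each library, the libraries held 95 and 102 counts, with shares of 15.7% and 14.9%. PCDHA5 had 48 and 38 counts and PCDHA11 had 46 and 58, with log2FCs of 0.32 (-0.32 to 0.98) and -0.34 (-0.93 to 0.24). PCDHA1 had 16 and 14 counts and PCDHA2 had 12 and 21, and for both the interval included 0. The share intervals are Clopper-Pearson as well, each within 1 library.

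In the beta cluster, whose genes are not spliced to shared exons, the higher sum came from the members at the start of the cluster. PCDHB5 had 87 counts in sh-MBD2 and 48 in sh-NC, a log2FC of 0.84 (0.32 to 1.39). PCDHB2 had 101 and 77 counts, a log2FC of 0.38 (-0.060 to 0.83). PCDHB6 had 27 and 15 counts, a log2FC of 0.82 (-0.12 to 1.86). PCDHB4 was equal with 8 counts in each library. From PCDHB2 to PCDHB6 the 5 members summed to 226 and 152 counts, a log2FC of 0.56 (0.26 to 0.87).

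Further along the cluster, where counts were low, the members differed in both directions, and 3 of them had a log2FC below -1. PCDHB13 had 2 counts in sh-MBD2 and 14 in sh-NC, a log2FC of -2.54 with a wide interval of -6.00 to -0.69. PCDHB11 had 6 and 14 counts, a log2FC of -1.17 (-2.90 to 0.24). PCDHB14 had 4 and 10 counts, a log2FC of -1.23 (-3.46 to 0.46). From PCDHB11 to PCDHB14, with PCDHB12 at 0, the sum was 12 and 38 counts, a log2FC of -1.63 (-2.74 to -0.70). Both stretches of the beta cluster were drawn after their values were seen, so these sums describe the cluster and are not support for a difference. PCDHB8 had 5 and 6 counts and PCDHB16 had 9 and 6, and their intervals included 0.

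Likeness between the beta genes limits what a count near the floor can say. Of all 100-base stretches of PCDHB8, 25.4% occurred unchanged in another member, most often PCDHB13, and of PCDHB13 15.1% did. The 24 promoter bases of PCDHB12 and PCDHB13 around the core were the same. The median share of such stretches was 6.1% in the beta cluster, 0.699% in the own exons of the alpha cluster and 1.28% in those of the gamma cluster. For PCDHA4 it was 0% and for PCDHB5 it was 3.11%. With stretches of 50 bases these shares were larger, with medians of 14.1% (beta), 9.92% (alpha) and 4.94% (gamma), and with 6.89% for PCDHA4 and 12.4% for PCDHB5. The read length is not given in the sources used here. Reads from the stretches in common could have been counted for either gene or dropped, which makes the value of PCDHB13 uncertain.

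The gamma cluster encodes A-type, B-type and C-type members. The A-type genes summed to 95 counts in sh-MBD2 and 108 in sh-NC, a log2FC of -0.19 (-0.61 to 0.22). The B-type genes summed to 111 and 97 counts, a log2FC of 0.18 (-0.22 to 0.59). The A-type and B-type sums lay on opposite sides of 0, and both intervals included 0. Single members differed in both directions. PCDHGA6 had 3 counts in sh-MBD2 and 17 in sh-NC, a log2FC of -2.33 (-4.92 to -0.72). PCDHGB4 had 39 and 22 counts, a log2FC of 0.80 (0.027 to 1.64). PCDHGA7, which lies between them, had 30 and 38 counts, a log2FC of -0.34 (-1.09 to 0.38).

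The remaining gamma members stayed within counting error. PCDHGA1 had 6 and 14 counts, a log2FC of -1.17 (-2.90 to 0.24). PCDHGB1 had 46 and 48 counts and PCDHGA2 had 25 and 22. PCDHGA4 had 17 counts in sh-MBD2 and 9 in sh-NC, a log2FC of 0.87 (-0.34 to 2.26). PCDHGB2 (11 and 8 counts), PCDHGA5 (7 and 5) and PCDHGB3 (9 and 15) had intervals that included 0. PCDHGC3 held the largest share of the cluster, 27.0% in sh-MBD2 and 26.8% in sh-NC. A symbol of the scheme that has no row here, PCDHGB5, was not analysed here. The symbols PCDHB17 and PCDHB18, now named as pseudogenes, were kept because the symbol alone decided membership.

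The members with hardly any reads leaned toward the knockdown library. Of the 26 members under 10 counts, 17 had between 1 and 8. Of these, 13 had more reads in sh-MBD2, 3 had more in sh-NC and 1 was equal. They summed to 47 counts in sh-MBD2 and 23 in sh-NC, a log2FC of 1.01 (0.27 to 1.81). Alpha members under 10 counts gave 16 and 5 of these reads, beta members 18 and 11, and gamma members 13 and 7. Over all 9403 genes with 1 to 8 counts, 45.5% had more reads in sh-MBD2 and the summed reads had a normalized ratio of 1.01, against 2.03 for the 17 members. No single member of this group can be called different at this depth, and the group was formed by a limit on counts. The summed reads make up a small part of the 1156 and 1175 of all members.

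The CpG content of the promoters, the sites that MBD2 can read when methylated, lay below the median of all promoters in most members. The 300-base promoters of the 46 members held a median of 7 CpG (quartiles 5 and 10). Over all 34943 promoters the median was 14, with wide quartiles of 4 and 28. C-type promoters were the exception, with a median of 20.5 CpG over 4 genes. PCDHAC1 had 27 CpG, PCDHGC3 had 18 and PCDHAC2 had 15. Leaving out C-type genes, the median was 7 CpG in the 23 members that reached 10 counts and 7 in the 19 that did not. Methylation of these sites was not measured here.

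The other genes of the pathway were read from lists of known partners. Of 12 single protocadherins, encoded outside the clusters, 5 had at least 10 counts, with 0 higher and 5 lower in sh-MBD2 and a median log2FC of -0.64. Over all 17545 genes 8963 were lower. PCDH9, a delta-type protocadherin, held most reads of that list, 2046 and 2154, a log2FC of -0.083 (-0.17 to 0.0049). PCDH15, known from the tip links of hair cells, had 13 and 31 counts, a log2FC of -1.23 (-2.32 to -0.29). It was the 1 gene of the list past -1, beside 5.07% of all genes and 9.39% in the members' range of counts. PCDH12 had 25 and 45 counts, a log2FC of -0.84 (-1.62 to -0.12). PCDH7 had 25 and 39 counts, a log2FC of -0.64 (-1.44 to 0.11). Under 10 counts, and named after their values were seen, PCDH17 (6 and 0), PCDH19 (2 and 0) and PCDH10 (2 and 1) had more reads in sh-MBD2. PCDH18 (1 and 3) had fewer.

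Of 20 chromatin factors known to act at the clustered promoters, 20 had at least 10 counts and 0 passed a log2FC of 1 or -1, with a median of -0.062. The corepressor TRIM28 had 7092 counts in sh-MBD2 and 5729 in sh-NC, a log2FC of 0.30 (0.25 to 0.35). The cohesin subunits SMC1A (5071 and 5697 counts) and RAD21 (4182 and 4738) had log2FCs of -0.18 (-0.23 to -0.12) and -0.19 (-0.25 to -0.13). An interval wholly below 0 was found in 8 of the 20 factors, beside 18.4% of all genes. Besides SMC1A and RAD21 they included the cohesin subunits or regulators SMC3, STAG2, NIPBL, PDS5A and PDS5B, named after their values were seen. An interval wholly above 0 was found in 4 of the 20, beside 19.7% of all genes. The factors had at least 418 counts in sh-MBD2 and 309 in sh-NC, and intervals narrow as counts rise. Both shares include genes with far fewer counts, and no share of genes with as many counts as the factors was taken. Named after their values were seen, CTCF had 1552 and 1472 counts, SMCHD1, a silencing factor of these clusters, had 1727 and 1702, and the DNA methyltransferase DNMT3B had 474 and 309. The log2FC was 0.067 (-0.036 to 0.17) for CTCF, 0.012 (-0.085 to 0.11) for SMCHD1 and 0.61 (0.40 to 0.82) for DNMT3B.

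Of 10 genes that process the protocadherins or bind their cytoplasmic ends, 0 passed a log2FC of 1 or -1, with a median of 0.0086. ADAM10, the protease that sheds their outer part, had 3981 and 5860 counts, a log2FC of -0.57 (-0.63 to -0.51). NCKAP1 and CYFIP1, subunits of the WAVE actin regulator, had log2FCs of -0.20 (-0.26 to -0.14) and 0.082 (0.0086 to 0.16). Of 10 neighbours of the clusters on chromosome 5, 9 had at least 10 counts and 0 passed a log2FC of 1 or -1, with a median of 0.0012. DIAPH1, ZMAT2 and HARS, the neighbours with the most counts, had log2FCs of -0.093, 0.0012 and 0.26. An interval without 0 was found above it in 3 of the 9, beside 19.7% of all genes, and below it in 3, beside 18.4%. These shares were not matched to the counts of the neighbours either. The neighbours that differed most, named after their values were seen, were FCHSD1 at -0.70 (-1.004 to -0.40) and ARAP3 at -0.63 (-0.88 to -0.39).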

How the data were processed

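RNA-seq was available from 1 sh-MBD2 and 1 sh-NC library of TFK1 cells (total RNA by TRIzol, VAHTS Universal V6 kit). The authors deposited whole-number read counts per gene and TPM per gene. The submitters' processing notes name fastp, HISAT2 2.1.0, featureCounts, DESeq 1.18.1 and GRCh38.p13; the annotation, strandedness and treatment of reads in shared exons are not given in the sources used here. Gene positions in the table differed from GENCODE 29 (GRCh38), with PCDHA1 starting at 140165876 in the table and at 140786136 in GENCODE 29. The notes thus do not settle which build the counted annotation used. Positions given here were taken from GENCODE 29 and RefSeq. Of 63723 lines, 63677 had an identifier. Rows that repeated both the symbol and the counts of another row were dropped, which left 56638, called genes here. A symbol with rows of different counts can thus stand more than once among all genes, while each member had 1 row.

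Counts were normalized by TMM in edgeR 4.0.16 (R 4.3.3), with factors of 0.994 for sh-MBD2 and 1.006 for sh-NC. The log2FC used a prior of 0.5 counts, for genes with at least 10 counts over both libraries; sums were treated alike. Calls were a log2FC past 1 or -1, or a 95% Clopper-Pearson interval (scipy 1.17.1) without 0. Up to 3 reads are compatible with a count of 0. The steps were tested on simulated data. DESeq2 1.42.0 size factors, total counts, priors, TPM and other count minimums were tried as alternatives. Every member with at least 10 counts could be named; from the lists, genes past 1 or -1 and the 3 with the most counts. Exceptions are marked in the text. Members and lists were chosen with earlier results of these data known.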

Additional observations from a re-analysis of the deposited data

How the results depend on the processing

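With the median of members in place of the sum, the beta value went from 0.34 to -0.0083, since PCDHB2 and PCDHB5 hold most of its reads, and the alpha value from -0.19 to -0.28. The other alternatives left the beta value between 0.31 and 0.35, the alpha value between -0.21 and -0.15 and the gamma value between -0.025 and 0.010. The number of members with a log2FC above 1 was 9 in place of 0 when 1 count was enough. The number below -1 went from 5 to 0 with TPM plus 1 and to 0 with at least 100 counts, and the number with an interval below 0 from 4 to 2 with at least 100 counts. Of 174 values of single members over 6 alternatives, 172 stayed inside their own interval, and the sign changed in 3, all of PCDHGC3, which is near 0. No paired analysis was possible because there was just 1 library of sh-MBD2 and 1 of sh-NC, and leaving out either leaves no comparison. Depth limits single members: at 20 counts or fewer only splits as uneven as those of PCDHB13 and PCDHGA6 had an interval without 0.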
